A study of Mus musculus with 18 samples.

Results

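The neural RNA-binding and splicing regulators examined here are 10 genes, *Celf3*, *Celf4*, *Elavl2*, *Elavl3*, *Elavl4*, *Nova1*, *Nova2*, *Rbfox1*, *Srrm3* and *Srrm4*, chosen by gene name from the 52636 genes listed in the expression tables of mouse colon epithelium. All 10 were found in the tables of sorted cells and of crypts. The study asked which transcripts mark colon cells that express the short-chain fatty acid receptor *Olfr78*, and what changes when the receptor is lost. Of its 18 RNA-seq libraries, 6 came from sorted cells of the Olfr78-GFP line, in which a GFP-IRES-tauLacZ cassette replaces the coding exon of *Olfr78*. Of these, 2 held Epcam+ve/GFP-ve cells of 1 wild-type (WT) mouse, 2 held Epcam+ve/GFP+ve cells of heterozygous (HE) mice, and 2 held Epcam+ve/GFP+ve cells of homozygous mice, which lack the receptor (KO). Each HE or KO library was a pool from 2 mice. The other 12 libraries were colon crypts, each from a single mouse. They came from 2 WT and 5 KO animals of that line, and from 3 control (eCtrl) and 2 epithelial knockout (eKO) mice of a line in which Cre under the *Vil1* promoter, active in intestinal epithelium, deletes a floxed *Olfr78* (fx). All mice were adult. Read as Vil1-Cre and then *Olfr78* fx, the genotype labels were HE/WT, WT/HO and HE/WT for the eCtrl mice, HE/HO for eKO mouse 1 and WT/HO, the genotype of a control, for eKO mouse 2. Its *Olfr78* level of 73 CP20M lay inside the range of the eCtrl mice, 61 to 124, while eKO mouse 1 had 21, so that it is named below as the library labelled eKO 2. CP20M is the unit of all levels, the reads of a gene scaled to 20000000 per library and rounded up.

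Most pre-mRNAs are spliced by a spliceosome common to all cells, and tissue-restricted RNA-binding proteins decide which alternative exons are kept. The members are best known from neurons. CELF proteins bind GU-rich RNA, ELAVL (Hu) proteins bind AU- and U-rich RNA and stabilise messages, NOVA proteins bind YCAY motifs, RBFOX proteins bind GCAUG, and SRRM3 and SRRM4 are SR-related proteins that promote the inclusion of microexons. Enteroendocrine cells, the hormone-secreting cells of the gut epithelium, share with neurons a machinery of regulated secretion, and enterochromaffin cells are their serotonin-producing subtype.

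All members are protein-coding genes of GRCm38 with introns, from 13.9 kb (*Celf3*) to 1526 kb (*Rbfox1*) long. *Celf3* (ENSMUSG00000028137) lies on the plus strand of chromosome 3 from 94478295 to 94492198, and *Elavl3* (ENSMUSG00000003410) on the minus strand of chromosome 9 from 22015005 to 22052023. *Nova2* (ENSMUSG00000030411) lies on the plus strand of chromosome 7 from 18925888 to 18965319. *Srrm4* (ENSMUSG00000063919), on the minus strand from 116439275 to 116591817, and *Srrm3* (ENSMUSG00000039860), on the plus strand from 135806890 to 135874772, share chromosome 5. Exons of *Celf3*, *Nova2* and *Srrm4* overlap exons of antisense genes, *Riiad1*, *Gm26821* and *Srrm4os*, and whether counting used the strand was not given in the sources used here, so that reads of these pairs cannot be fully told apart. Exons of *Elavl3* and *Nova1* overlap those of Gm49318 and Gm33869 on the same strand, which are not used here.

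The 250 bases before the annotated start (RefSeq, GRCm38.p6) are shown for the 4 members called higher in GFP+ve cells of HE mice by at least 1 of the tests below, since these genes were high in the same pools. They are written 5′ to 3′ on the strand of the gene, and for *Celf3*, which has 7 annotated starts, the 5′-most start was taken. Capitals mark the E-box letters CAGATG or CAGCTG, to which basic helix-loop-helix factors such as NEUROD1 can bind, and the TATA box letters TATAAA, each on either strand. The windows are chr3:94478045-94478294 (plus strand), chr9:22052024-22052273 (minus), chr7:18925638-18925887 (plus) and chr5:116591818-116592067 (minus).
*Celf3*: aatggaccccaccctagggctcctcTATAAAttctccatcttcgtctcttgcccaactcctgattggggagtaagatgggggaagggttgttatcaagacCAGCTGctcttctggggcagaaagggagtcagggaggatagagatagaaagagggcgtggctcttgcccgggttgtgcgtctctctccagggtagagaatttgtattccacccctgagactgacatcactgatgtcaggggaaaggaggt
*Elavl3*: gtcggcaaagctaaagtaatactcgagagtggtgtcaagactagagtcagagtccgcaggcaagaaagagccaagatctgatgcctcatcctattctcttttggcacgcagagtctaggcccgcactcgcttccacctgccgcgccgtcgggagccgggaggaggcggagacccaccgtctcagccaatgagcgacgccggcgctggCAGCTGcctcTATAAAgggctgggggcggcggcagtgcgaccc
*Nova2*: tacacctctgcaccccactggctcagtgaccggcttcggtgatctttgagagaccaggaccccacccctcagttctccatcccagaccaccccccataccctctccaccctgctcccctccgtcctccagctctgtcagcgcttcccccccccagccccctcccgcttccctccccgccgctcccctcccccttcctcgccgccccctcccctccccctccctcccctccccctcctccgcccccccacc
*Srrm4*: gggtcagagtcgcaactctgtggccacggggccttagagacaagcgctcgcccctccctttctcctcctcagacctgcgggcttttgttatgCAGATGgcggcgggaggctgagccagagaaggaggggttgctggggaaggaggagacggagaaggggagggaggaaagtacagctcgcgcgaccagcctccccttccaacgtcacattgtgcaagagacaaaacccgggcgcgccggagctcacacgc

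Promoter windows were found for 9 of the 10 members, 24 windows in all, of which some of *Celf3*, *Elavl2* and *Elavl4* overlap. At least 1 window held CAGATG in 4 members and CAGCTG in 5, against 16.3% and 14.7% of all 27025 genes with a window. These shares are not like for like, since the members have more windows per gene than the 32851 windows of all genes. By window, 8 of the 24 held CAGATG and 8 held CAGCTG, against 14.4% and 13% of all windows, and windows that overlap share their matches. TATAAA stood 225 bases before the 5′-most start of *Celf3* and 33 bases before that of *Elavl3*, and 14.3% of all genes held it. REST, a repressor of neuronal genes, binds the RE1 element. The letters CAGCACC and GGACAGC, taken from the left and the right part of that element, were in none of the 24 windows, and 6.56% and 6.14% of all genes held them on either strand. The windows of *Nova2* and *Elavl2* held neither E-box. A match of letters is a description and not a binding site.

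Reads on genes numbered 532702 in KO pool 1, 1499832 to 2237474 in the other sorted libraries and 6175301 to 10995300 in crypts, and a single read therefore stood for 37.5 CP20M in the first KO pool, 8.94 to 13.3 in the other sorted libraries and 1.82 to 3.24 in crypts. *Olfr78*, the gene targeted, stood at 4822 and 4401 CP20M in both HE pools and 977 and 837 in both KO pools, and 88 and 111 in WT crypts against 7 to 42 in KO crypts. The labels call all sorted samples enteroendocrine. The summed level of 9 enteroendocrine markers was 13184 to 13338 CP20M in the GFP-ve samples and 856944 to 1107273 in both HE pools, so that the label held for the GFP+ve pools and not for the GFP-ve samples. Of 8 enteric neuron markers, *Hand2*, *Vip* and *Th* were at 0 in all 6 sorted libraries, *Prph* had 38 CP20M in KO pool 1 alone, and *Nos1* had 27 in HE pool 2 and 38 in KO pool 1. *Ret*, *Phox2a* and *Chat* passed the filter of the first comparison, and *Ret* was called higher in the HE pools (4.02, adjusted p = 4.53e-04, limma), while *Chat* reached 174 CP20M in HE pool 2. The summed enteric neuron markers were 83 to 252 CP20M in the GFP-ve samples, 1483 to 1567 in both HE pools and 791 to 978 in both KO pools, mostly from *Ret*, which had 1462 and 1201 CP20M in both HE pools. All 5 enteric glia markers summed to at most 81 CP20M in any sorted library. KO pool 2 stood apart from the other GFP+ve pools in its goblet cell markers, whose sum was 310742 CP20M against 58309 to 138092 in the others and 274465 to 325984 in the GFP-ve samples.

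The question of the first comparison was which transcripts GFP+ve cells of HE mice carry beyond those of the general epithelium. *Celf3* was by far the most abundant member in these cells, followed by *Elavl3*, *Nova2*, *Srrm4* and *Srrm3*, while *Celf4*, *Elavl2*, *Elavl4* and *Nova1* rested on a few reads and *Rbfox1* had none. *Celf3* rose 191-fold in mean level and *Elavl3* rose from 1 read to 94 in all, both called by limma, and *Nova2* and *Srrm4* were past the thresholds only by the tests on reads. Log2(CP20M + 10) was tested with limma, adjusted by Benjamini-Hochberg over the 16355 genes with at least 40 CP20M in at least 2 of the 4 libraries, at an adjusted p under 0.001 and a log2 fold change beyond 2. Fold changes on that scale understate the change of low genes. The GFP-ve samples came from 1 mouse, so that p-values carry no spread between WT mice. That WT mouse carries no GFP cassette, so its GFP-ve cells can include cells that express *Olfr78* (135 and 21 CP20M). The groups thus differ in *Olfr78* genotype as well as in the cells sorted. In bulk RNA, fewer cells of a type and less RNA per cell cannot be told apart.

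CELF3, a splicing regulator of the brain, gave the largest value of any member. Its gene had 18 and 21 CP20M in the GFP-ve samples, from 2 reads each, and 3855 and 3601 in both HE pools, from 335 and 270 reads. Every HE pool was far above each GFP-ve sample. The mean was 19.5 ± 2.12 (SD, n = 2) against 3728 ± 180 (SD, n = 2), with a log2 fold change of 6.99 (SE 0.34, adjusted p = 1.1e-05, limma). Since the GFP-ve reads were so few, the ratio of pooled reads, 195, had a counting interval (exact, 95%) from 75.9 to 720. The study itself lists *Celf3* among the genes that differed most between these libraries, so its change is not independent evidence. *Riiad1*, whose exons overlap those of *Celf3* on the other strand, had 9 and 72 CP20M in the GFP-ve samples and 530 and 747 in both HE pools. *Celf4*, a paralog with a broad role in neuronal mRNA regulation, had 18 and 31 CP20M in the GFP-ve samples and 58 and 54 in both HE pools. These values did not overlap but came from 2 to 5 reads, and its log2 fold change of 0.96 (SE 0.64) had an adjusted p of 0.318 (limma).

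Among the ELAVL genes, *Elavl3* carried most of the neural ELAVL RNA per kb of the GFP+ve cells. It had 0 and 11 CP20M in the GFP-ve samples, the latter from 1 read, and 553 and 614 in both HE pools, from 48 and 46 reads. The pools were alike and both far above the GFP-ve samples, with a log2 fold change of 5.35 (SE 0.61, adjusted p = 8.71e-04, limma). The ratio of pooled reads was 121, with a counting interval from 21.3 to 4848. *Elavl4*, the neuronal HuD gene, had no read in the GFP-ve samples and 47 and 54 CP20M in both HE pools, from 4 reads each. Its mean in both HE pools was at least 1.75-fold higher than 3 reads in each GFP-ve library would give, and its adjusted p was 0.0269 (limma), not past the threshold. *Elavl2*, the HuB gene, was not tested, with 0 and 11 CP20M in the GFP-ve samples and 24 and 41 in both HE pools, from 2 and 3 reads. Its ratio of pooled reads, 6.46, had a counting interval from 0.723 to 306, so that no difference was detectable at this depth.

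Of the NOVA genes, which control synaptic exons in neurons, *Nova2* was high in the GFP+ve cells. It had 18 and 21 CP20M in the GFP-ve samples and 357 and 467 in both HE pools, from 31 and 35 reads. The groups did not overlap, and the mean ratio was 21.1, with a log2 fold change of 3.83 (SE 0.53). Its adjusted p was 0.00228 by limma, which missed the threshold, and 1.39e-04 by edgeR and 8.9e-05 by DESeq2 on recovered reads, which passed it. *Nova1* had 9 and 11 CP20M in the GFP-ve samples and 35 and 14 in both HE pools, from 1 to 3 reads, and was not tested. *Nova2* made up 91.4% and 97.2% of the NOVA RNA per exonic kb in both HE pools and 67.6% and 66.6% in the GFP-ve samples, the latter on 6 reads of both genes.

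The microexon factors *Srrm3* and *Srrm4* were both present in the GFP+ve cells. *Srrm4*, which encodes the neural SR-related protein nSR100, had no read in the GFP-ve samples and 208 and 467 CP20M in both HE pools, from 18 and 35 reads. Its mean in both HE pools was at least 11.7-fold higher than 3 reads in each GFP-ve library would give. The adjusted p was 0.00188 by limma, which missed the threshold, and 2.86e-04 by edgeR and 7.33e-05 by DESeq2, which passed it. The antisense gene *Srrm4os* had 0 CP20M in the GFP-ve samples and 58 and 0 in both HE pools. *Srrm3* had 18 and 0 CP20M in the GFP-ve samples and 173 and 187 in both HE pools, from 15 and 14 reads. Its pools were closely alike, and its log2 fold change of 3.50 (SE 0.71) had an adjusted p of 0.0102 by limma, 0.00453 by edgeR and 0.0181 by DESeq2, none past the threshold. *Rbfox1*, a splicing factor of neurons and muscle, had no read in any of the 6 sorted libraries, and 3 reads, the limit a count of 0 allows, would be 26.8 CP20M in the deepest, a GFP-ve sample, at least 34.5 CP20M in each GFP+ve pool and 113 CP20M in KO pool 1.

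**Figure D1:**
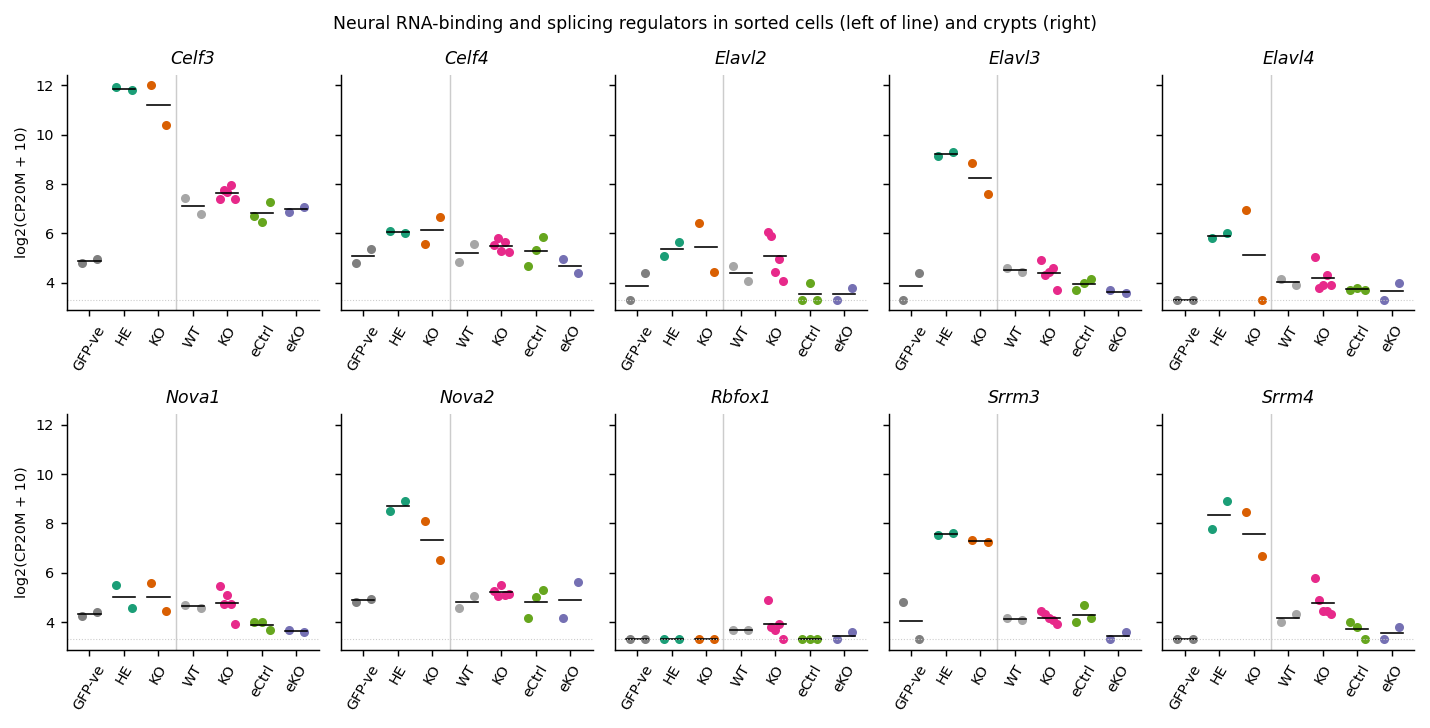
Level of each of the 10 members, as log2(CP20M + 10), in every library of sorted cells (left of the vertical line; GFP-ve, HE and KO) and of crypts (right; WT, KO, eCtrl and eKO). Points are libraries, bars the means of the groups, and the dotted line a level of 0. *Celf3*, *Elavl3*, *Nova2*, *Srrm3* and *Srrm4* stand far higher in the GFP+ve pools than in the GFP-ve samples, and *Rbfox1* is at 0 in all sorted libraries.

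In all, 7 of the 10 members passed the filter and were tested, all through the HE pools, since at most 31 CP20M was seen for any member in a GFP-ve sample. Limma called 2 of them higher, where 1.58% of all genes tested were called higher and 0.171% lower. EdgeR and DESeq2 each called 4 (*Celf3*, *Elavl3*, *Nova2* and *Srrm4*), where 3.56% and 3.35% of genes were called higher. All 7 members tested were higher in both HE pools than in both GFP-ve samples, as were 30.4% of genes tested, and they passed the filter through the HE pools. *Elavl2* and *Nova1*, not tested, did not overlap either. Without GFP-ve sample 1, GFP-ve sample 2, HE pool 1 or HE pool 2, limma called no gene at all at these thresholds, with 6 members at an unadjusted p under 0.05 each time. The adjusted p of *Celf3* was then 0.01 to 0.0562 and that of *Elavl3* 0.0332 to 0.078, while log2 fold changes stayed between 6.91 and 7.06 for *Celf3* and between 4.82 and 5.89 for *Elavl3*. Each of these fits has 1 group of a single library, which is assumed to vary like the other group, so that the lost calls say nothing on stability.

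Levels of different genes were compared per kb of annotated exons, taken as the union over all isoforms. In the HE pools the order of mean levels was *Celf3* (681 CP20M per kb), *Elavl3* (84.7), *Nova2* (49.2), *Srrm4* (38.9), *Srrm3* (28.1), *Elavl4* (9.37), *Celf4* (6.52), *Elavl2* (3.91), *Nova1* (2.80) and *Rbfox1* (0). The ranges of the pools overlapped between *Nova2* and *Srrm4*, between *Srrm4* and *Srrm3*, and between *Elavl2* and *Nova1*, while *Celf3* and *Elavl3* stood clear of their neighbours. In the KO pools the order began again with *Celf3* (497) and *Elavl3* (46.2), and the ranges of *Elavl3*, *Srrm4* and *Nova2* overlapped.

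The members have paralogs, some of which most cells express, and the make-up of each family was computed from these levels. In the GFP-ve samples *Celf1*, a ubiquitous paralog, made up 81.2% and 84.2% of CELF RNA per kb and *Celf3* 0.97% and 1.37%. In the HE pools *Celf3* made up 57.5% and 52.7% and *Celf1* 22.2% and 25.8%. Per exonic kb *Celf3* was thus the leading CELF transcript of the HE pools, and *Celf1* that of the GFP-ve samples. *Celf2* made up 9.87% and 12.8% per kb in both HE pools. This ranking depends on the exon length used, since in CP20M *Celf2* had 3130 and 4148 there against 3855 and 3601 for *Celf3*. *Celf1* itself had 2325 and 1993 CP20M in the GFP-ve samples and 2302 and 2721 in both HE pools, a log2 fold change of 0.22 (SE 0.19, adjusted p = 0.462, limma). *Elavl1*, the ubiquitous HuR gene, made up 100% and 97.6% of ELAVL RNA per kb in the GFP-ve samples and 64.0% and 57.4% in both HE pools, where *Elavl3* reached 31.5% and 36.5%. The level of *Elavl1* had a log2 fold change of 0.35 (SE 0.20, adjusted p = 0.25, limma). *Srrm3* and *Srrm4* together with their broadly expressed relatives *Srrm1* and *Srrm2* showed another picture, since in both HE pools *Srrm3* stayed at 1.16% and 1.65% and *Srrm4* at 1.03% and 3.04% of the RNA per kb, and *Srrm2* made up 73.9% and 73.6%.

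**Figure D2:**
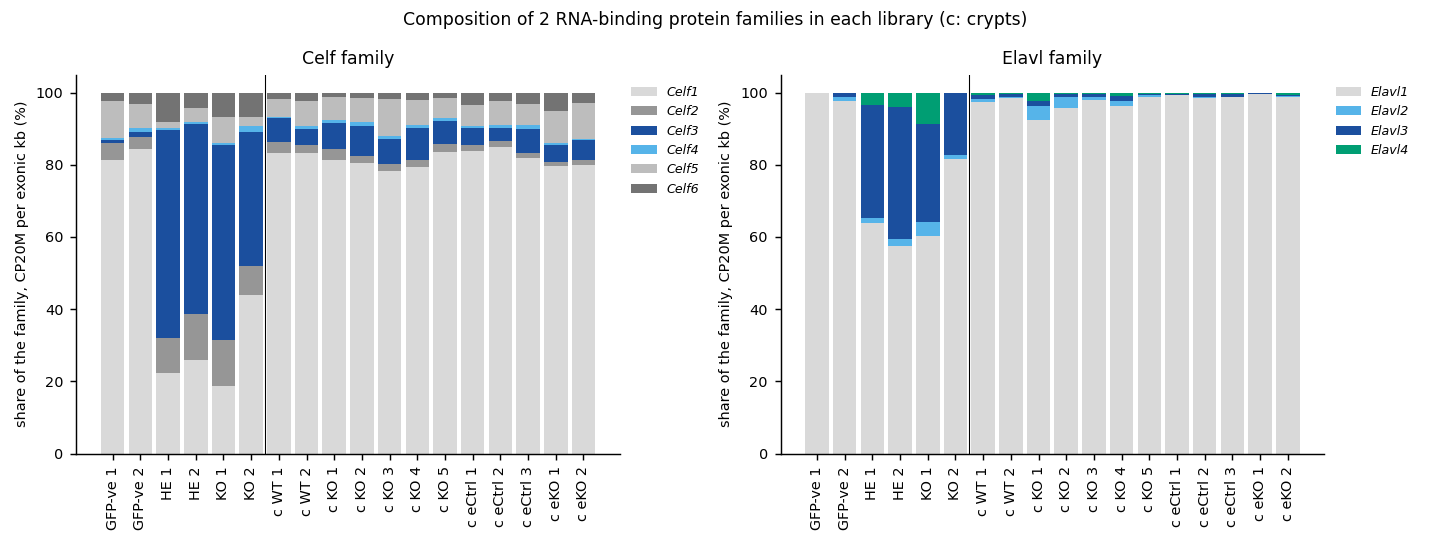
Share (%) of each gene in the CELF family (left) and the ELAVL family (right), from CP20M per exonic kb, in each library. Stacked bars are libraries, with sorted cells left of the line and crypts (c) right of it. Blue and green mark members and grey the paralogs that are not members. *Celf3* makes up 52.7% to 57.5% in both HE pools and at most 8.76% in crypts.

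Of the 9 paralogs, 8 were tested and 1 rose. *Celf2*, a CELF gene of brain, heart and other tissues, had 412 and 247 CP20M in the GFP-ve samples and 3130 and 4148 in both HE pools, a log2 fold change of 3.46 (SE 0.29, adjusted p = 2.06e-04, limma). All 8 log2 fold changes were above 0, with a median of 0.51 against -0.05 over all genes tested, and the smallest was 0.06 for *Srrm1*. *Celf6* (2.79, adjusted p = 0.0111) and *Rbfox2* (1.27, adjusted p = 0.00483, limma) were not called. *Rbfox3*, the gene of the neuronal marker NeuN, had no read in these 4 libraries.

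Among 13 other tissue-restricted splicing regulators limma called none of the 11 tested, with a median log2 fold change of 0.14. *Qk* (quaking) had the highest value of 3.65 (SE 0.50, adjusted p = 0.00222) and *Mbnl3*, a muscleblind gene, the lowest of -2.13 (SE 0.38, adjusted p = 0.0061, limma), and edgeR and DESeq2 called both, where they called 1.08% and 0.874% of genes lower. Of 5 epithelial splicing regulators and PTB proteins none was called. *Esrp2*, which with *Esrp1* sets epithelial exon choice, had the lowest log2 fold change of -1.39 (SE 0.28, adjusted p = 0.0106) and *Ptbp3* the highest of 0.37 (adjusted p = 0.173, limma). *Esrp1* had 5122 and 4438 CP20M in the GFP-ve samples and 2693 and 2041 in both HE pools, a log2 fold change of -1.02 with an adjusted p of 0.00901 (limma), past neither threshold. Of REST and 10 of its partners none was called. *Rest* had 1055 and 1233 CP20M in the GFP-ve samples and 484 and 94 in both HE pools, with a log2 fold change of -2.34 (SE 0.62, adjusted p = 0.0273), and *Rcor2* the highest value of 1.94 (adjusted p = 0.0535, limma). The 23 core spliceosome genes had a median of -0.44, from -2.08 for *Snrpf* (adjusted p = 0.0075) to 0.43 for *Srsf11* (adjusted p = 0.0973, limma), with none called. The total level of 11 genes known to carry neuronal microexons does not tell whether a microexon was included, and none was called. Their values ran from -1.24 for *Ptprd* (adjusted p = 0.00898) to 3.88 for *Apbb1* (adjusted p = 0.00498, limma).

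The next comparison asked whether loss of *Olfr78* changed these transcripts in the GFP+ve cells themselves. No member was called between KO and HE pools. In KO pool 1, the least deep library, *Elavl3*, *Nova2* and *Srrm3* lay below both HE pools, *Celf3* above both and *Srrm4* between them. KO pool 2 was the lowest pool for the 5 members of higher level, for *Srrm3* only by 140 against 151 CP20M in KO pool 1. Of the 10 members, 5 exceeded 40 CP20M in all 4 pools and were tested, and limma called 0 of them, with 0 at an unadjusted p under 0.05 and 0 called by edgeR or DESeq2 (adjusted p under 0.05 over 11892 genes). Among all genes limma and edgeR called 0% in either direction, with 503 genes (4.23%) at an unadjusted p under 0.05 in limma, and DESeq2 called 0.042% higher and 0.0252% lower. This comparison shares the HE pools with the first.

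*Celf3* had 3855 and 3601 CP20M in both HE pools and 4093 and 1348 in both KO pools, from 109 and 116 reads. KO pool 1 was above both HE pools and KO pool 2 well below them, so that the groups overlapped. Its log2 fold change was -0.66 (SE 0.48, adjusted p = 0.931, limma). Without KO pool 1 it was -1.46 with an adjusted p of 0.0107, past the threshold, and without KO pool 2 it was 0.14. In each of these fits the lone KO pool was assumed to vary like the HE pools. *Elavl3* had 451 and 186 CP20M in both KO pools, from 12 and 16 reads, both below the 553 and 614 seen in HE cells. The log2 fold change of *Elavl3* was -0.98 (SE 0.53, adjusted p = 0.931, limma). *Nova2* had 263 and 82 CP20M in both KO pools, from 7 reads each, below the 357 and 467 of the HE pools. It gave the lowest log2 fold change of the members, -1.40 (SE 0.63, adjusted p = 0.931, limma). *Srrm3* had 151 and 140 CP20M in both KO pools, from 4 and 12 reads, against 173 and 187 in both HE pools. *Srrm4* had 338 and 93 CP20M in both KO pools, from 9 and 8 reads, against 208 and 467. For *Srrm3* the log2 fold change was -0.29 (SE 0.52, adjusted p = 0.961), and for *Srrm4* -0.77 (SE 0.71, adjusted p = 0.931, limma), which became 0.11 without KO pool 2.

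Of the 5 members tested, 3 did not overlap between the pools and were lower in KO (*Elavl3*, *Nova2* and *Srrm3*), where 26.1% of all genes tested did so. *Srrm3* had 4 reads in KO pool 1, where a single read stood for 37.5 CP20M. Its ratio of pooled reads, 0.793, had a counting interval from 0.402 to 1.51, so that its gap was within counting error. By the criterion that the methods of the study apply to these pools, means that lie more than 2 average SDs and more than 1.5-fold apart, *Elavl3* and *Nova2* were lower, where 9.98% of genes were lower by it. After median-of-ratios rescaling neither was, where 5.32% of genes were lower. Over all genes tested, the median of the log2 fold changes moved from -0.18 to -0.02 with that rescaling. Relative to the median of -0.18, the members' values were -0.49 for *Celf3*, -0.80 for *Elavl3*, -1.22 for *Nova2*, -0.11 for *Srrm3* and -0.59 for *Srrm4*. The low-level members also gave no order. *Elavl4* had 113 and 0 CP20M in both KO pools, from 3 and 0 reads, *Elavl2* 76 and 12, *Celf4* 38 and 93, and *Nova1* 38 and 12.

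Other values also differed between the pools, and not always in the order of the members. The 10 members summed to 5310 and 5499 CP20M in both HE pools and to 5561 and 1966 in KO pools 1 and 2. The summed enteroendocrine markers were 603342 and 359361 CP20M in KO pools 1 and 2, against 856944 to 1107273 in both HE pools. The goblet markers, at 310742 CP20M, and *Rest*, at 884 CP20M against 113 in KO pool 1, were higher in KO pool 2, where the members of higher level were lower. Goblet sums (138092 and 59901 CP20M) and *Rest* (484 and 94) also differed between HE pools 1 and 2, while *Celf3* had 3855 and 3601. All 5 goblet and all 6 colonocyte markers were above 0 in every sorted library. The colonocyte sums were 65430 and 48755 CP20M in both HE pools, 20389 in KO pool 1 and 55290 in KO pool 2. *Krt20*, the only colonocyte marker higher in HE pools than in GFP-ve samples, had 24878 and 31364 CP20M in both HE pools and 14755 and 11876 in both KO pools. *Car1* had 33657 and 13482, then 4318 and 35383 in the same order. *Slc26a3* and *Guca2a* were likewise lowest in KO pool 1 and next lowest in HE pool 2, while *Aqp8* and *Car4* were not. Divided by the level of *Chga*, which encodes the granule protein chromogranin A, *Celf3* had 15.9 and 11.8 CP20M per 1000 of *Chga* in both HE pools and 24.4 and 12.6 in both KO pools. Those ranges overlapped, as did those of *Elavl3* (2.28 and 2.02 against 2.68 and 1.74), of *Nova2* (1.47 and 1.53 against 1.57 and 0.765) and of *Srrm4* (0.857 and 1.53 against 2.01 and 0.868). *Srrm3*, lower in both KO pools in CP20M, was higher in both per 1000 of *Chga*, at 0.899 and 1.31 against 0.712 and 0.614, without overlap. *Chga* itself was lower in both KO pools, at 168049 and 107136 CP20M against 242823 and 304540, so these ratios also carry its change. The value of *Srrm3* in KO pool 1 rested on 4 reads, and no share over all genes was computed for this ratio. The part of cell make-up in the lower values of KO pool 2 was not tested further.

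**Figure D3:**
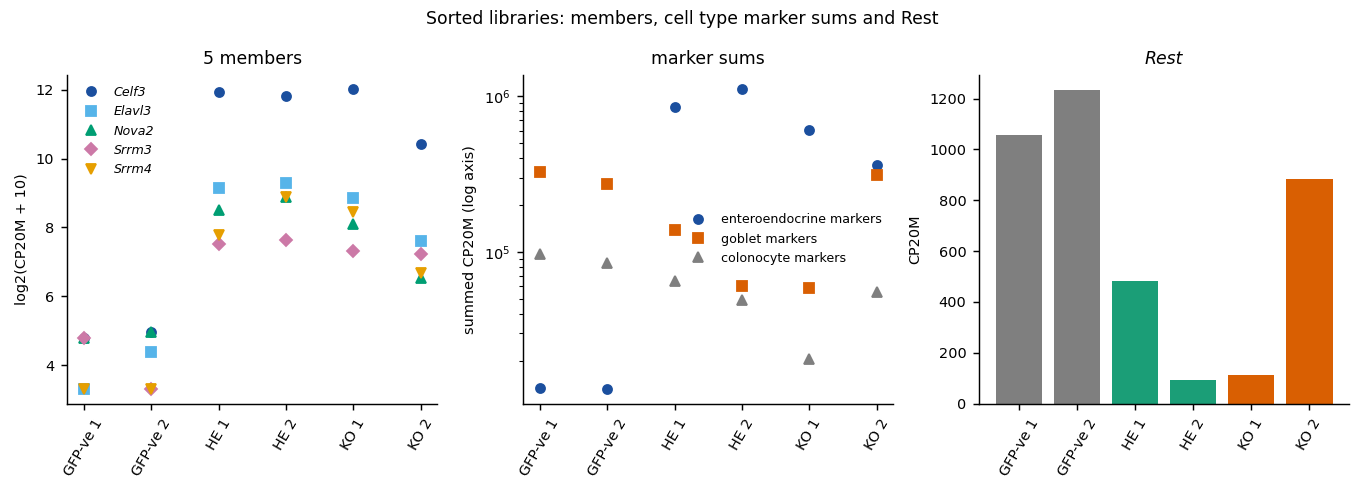
Left, 5 members as log2(CP20M + 10) in the 6 sorted libraries; middle, summed CP20M of 9 enteroendocrine, 5 goblet and 6 colonocyte markers on a log axis; right, *Rest* in CP20M. Points and bars are single libraries. KO pool 2 has the lowest members and enteroendocrine sum of the GFP+ve pools, and the highest goblet sum (310742) and *Rest* (884).

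The KO pools were also set beside the GFP-ve samples, which they share with the first comparison. Limma called 0 of the 5 members tested, with 5 at an unadjusted p under 0.05, and 0% of 15779 genes, with 2925 genes (18.5%) at an unadjusted p under 0.05. EdgeR and DESeq2 each called *Celf3*, where 0.19% and 1.43% of genes were called higher. For *Celf3* the log2 fold change was 6.32 (SE 0.61), with an adjusted p of 0.024 by limma, 9.34e-04 by edgeR and 7.41e-13 by DESeq2. The limma values of the other 4 were 4.37 for *Elavl3* (adjusted p = 0.1), 2.43 for *Nova2* (adjusted p = 0.234), 3.22 for *Srrm3* (adjusted p = 0.189) and 4.24 for *Srrm4* (adjusted p = 0.142). The median of all genes was -0.26, and -0.12 after rescaling, so that *Celf3* lay 6.58 above it. All 5 members tested were higher in both KO pools than in both GFP-ve samples, as were 19.4% of genes tested. For the members this was fixed by the filter, since none exceeded 31 CP20M in a GFP-ve sample and 40 were needed in 2 libraries. They thus passed it only through the KO pools, which also favoured their low unadjusted p-values. Of the members not tested, *Celf4*, *Elavl2* and *Nova1* did not overlap either, on 1 to 8 reads in a KO pool, and *Elavl4* and *Rbfox1* overlapped. *Srrm4* was at least 7.48-fold higher than 3 reads in each GFP-ve library would give.

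In the 6 lists of RNA-processing, REST and microexon genes, limma and edgeR called no gene in the KO pools against either group, and DESeq2 called *Celf2* alone, against the GFP-ve samples. Against the HE pools the extremes were *Rbfox2* (-0.79) and *Celf5* (0.33) among paralogs, *Msi1* (-1.35) and *Rbm38* (0.75) among other tissue-restricted regulators, *Ptbp1* (-0.39) and *Esrp2* (0.53) among epithelial regulators, and *Ehmt2* (-0.68) and *Ctdsp1* (0.65) among REST and its partners. Among core spliceosome genes they were *Snrpd3* (-1.19) and *Snrpf* (1.32), and among genes with microexons *Apbb1* (-0.59) and *Eif4g1* (0.04). All these log2 fold changes had adjusted p-values from 0.931 to 0.993 (limma). Against the GFP-ve samples, *Celf2* (2.95, adjusted p = 0.107), *Qk* (2.57, adjusted p = 0.147) and *Apbb1* (3.29, adjusted p = 0.193, limma) had the highest values of their lists.

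**Figure D4:**
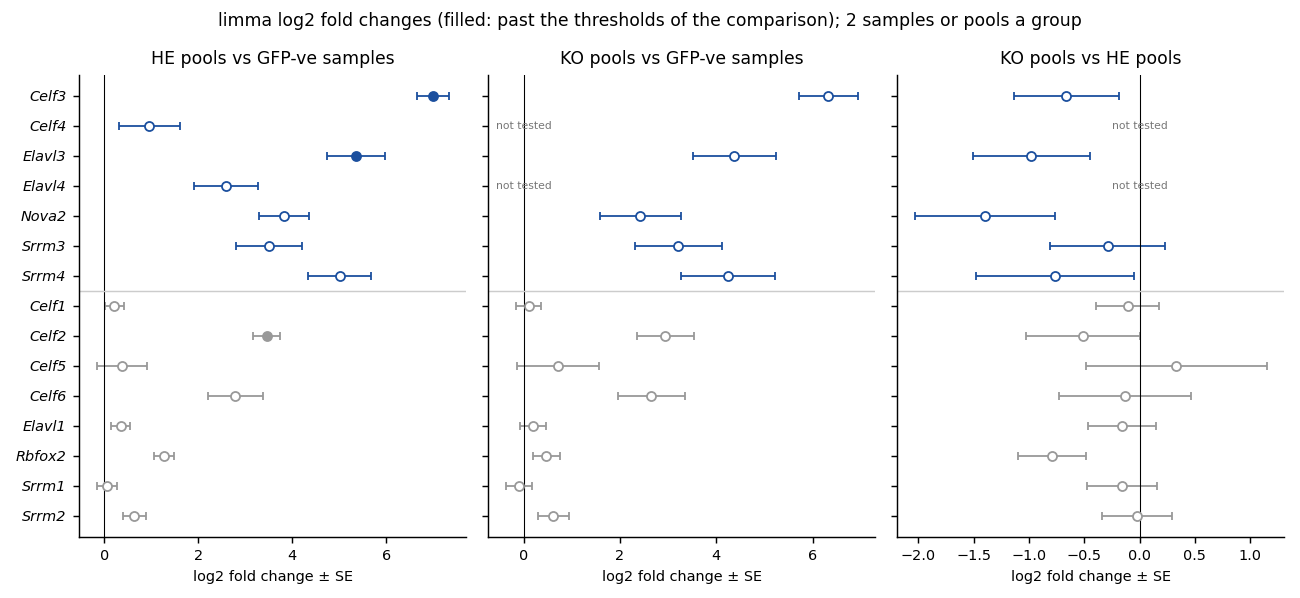
Log2 fold change ± SE (limma, on CP20M + 10) of 7 members (blue) and 8 paralogs (grey) in 3 comparisons of sorted cells with 2 libraries a group. Filled points pass the thresholds of the comparison. *Celf3* (6.99), *Elavl3* (5.35) and *Celf2* (3.46) pass in HE pools against GFP-ve samples, and none passes in the other panels.

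In crypts, which hold all epithelial cell types, *Celf3* was the only member above 56 CP20M in any crypt library, and *Rbfox1*, absent from sorted cells, gave a few reads. None of the 10 was called between crypts titled knockout (KO and eKO) and those titled wild type or control (WT and eCtrl). The knockout side includes the library labelled eKO 2, which has the genotype of a control. The crypts were tested with both lines together and the line as a covariate (16447 genes), and within each line, at an adjusted p up to 0.2 and more than a 1.5-fold change. *Celf3*, *Celf4* and *Elavl2* passed the filter for both lines together, and the other 7 members were below 40 CP20M in all or all but 1 of the 12 libraries.

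*Celf3* had 163 and 100 CP20M in WT crypts and 157 to 242, with a median of 195, in the 5 KO crypts. KO mice 2, 3 and 4 were above both WT mice, KO mice 1 and 5 lay just below WT mouse 1, and the groups overlapped. Its log2 fold change was 0.53 (SE 0.22, adjusted p = 0.151, limma), past the adjusted p and short of the fold threshold. In that comparison 7.95% of genes tested were called higher and 1.53% lower. *Celf3* was called without WT mouse 1 (0.85), KO mouse 1 (0.59) or KO mouse 5 (0.59), and not without any of the other 4 mice. Without WT mouse 1, the lone WT mouse was assumed to vary like the KO mice. In the other line *Celf3* had 94, 79 and 147 CP20M in the eCtrl mice, 108 in eKO mouse 1 and 126 in the library labelled eKO 2. These values overlapped, with a log2 fold change of 0.16 (SE 0.31, adjusted p = 1, limma). For both lines together the value was 0.36 (SE 0.19, adjusted p = 0.651, limma), where 0.00608% of genes were called higher and 0.0182% lower, and the difference between the lines was -0.37 (adjusted p = 0.722, limma). *Chga* had 3896 and 1886 CP20M in WT crypts and 1727 to 3552 in KO crypts, a log2 fold change of -0.21 (adjusted p = 0.672, limma), and *Chgb*, which encodes chromogranin B, was called lower in KO crypts (-0.61, adjusted p = 0.124, limma). Per 1000 CP20M of *Chga*, *Celf3* was 41.8 and 53.0 in WT crypts and 44.5 to 123 in KO crypts. The same ratio was 11.8 to 24.4 in GFP+ve pools and 5.14 and 6.21 in GFP-ve samples, which were prepared with another RNA kit and were not tested against crypts.

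*Celf4* had 19 and 37 CP20M in WT crypts, 28 to 46 in KO crypts, 16 to 48 in eCtrl crypts, 21 in eKO mouse 1 and 11 in the library labelled eKO 2, without any group standing apart. For both lines together its log2 fold change was -0.12 (SE 0.28, adjusted p = 0.917, limma). *Elavl2* had 16 and 7 CP20M in WT crypts and 56, 49, 12, 21 and 7 in KO mice 1 to 5. It was high in KO mice 1 and 2 only, with a log2 fold change of 0.69 (SE 0.51, adjusted p = 0.421, limma), and it reached at most 6 CP20M in the eCtrl and eKO mice. *Nova2* ranged from 8 to 39 CP20M over all crypts, with a mean of 18.5 ± 6.36 (SD, n = 2) in WT and 27.2 ± 5.26 (SD, n = 5) in KO crypts, and its groups touched at 23 CP20M. *Elavl3*, the second member of the HE pools, had at most 20 CP20M and *Srrm3* at most 16 CP20M in any crypt library. *Srrm3* had 6, 16 and 8 CP20M in the eCtrl mice against 0 in eKO mouse 1 and 2 in the library labelled eKO 2, without overlap but from 0 to 8 reads, and it was not tested. Of the genes tested there, 2.79% did not overlap and were lower.

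KO mouse 1 had the highest level of several low members among the crypt libraries, but not of *Celf3* (158 CP20M), *Celf4* (36), *Nova2* (28) or *Srrm3* (12). It had 20 CP20M of *Rbfox1*, from 7 reads, against at most 5 in the other 11 mice, and 45 of *Srrm4*, from 16 reads, against at most 20. *Elavl4* was 23 CP20M in this mouse and at most 10 elsewhere, and *Nova1* was 34 and at most 24 elsewhere. All 4 were thus highest in the same library. *Khdrbs2*, a neural splicing regulator at 0 in all sorted libraries, had 89 CP20M in it and at most 30 elsewhere. Of the enteric neuron markers, *Th* (14 CP20M) was highest in this mouse, as were *Ret* (119), *Phox2a* (78) and *Prph* (9), while *Nos1* (25) and *Vip* (12) were higher in the library labelled eKO 2, *Hand2* was at 0 and *Chat* had 14, the lowest crypt value. The summed enteric neuron markers were 271 CP20M in this mouse, 154 to 212 in the other KO mice, 152 and 172 in WT mice, 142 to 175 in eCtrl mice, 104 in eKO mouse 1 and 254 in the library labelled eKO 2, and their part in these levels was not tested. This library listed 37713 genes above 0, against 24929 to 33385 in the other crypts. Without KO mouse 1 no member was called for both lines together, and *Elavl2* was not called within the Olfr78-GFP line.

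**Figure D5:**
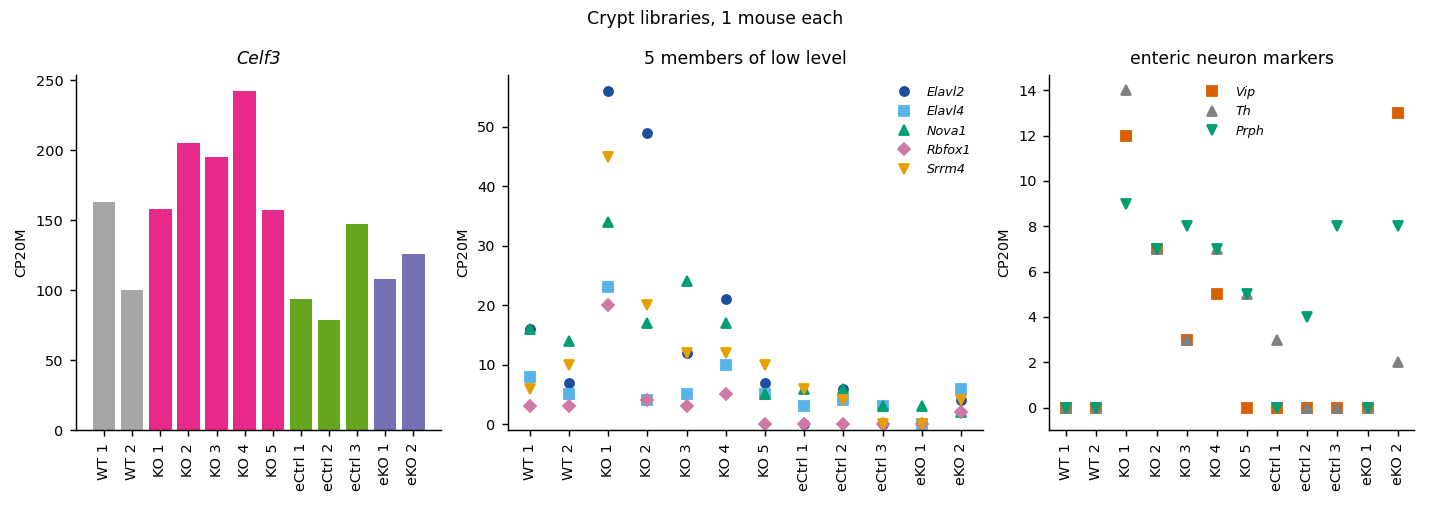
CP20M in the 12 crypt libraries, 1 mouse each, of *Celf3* (left), 5 members of low level (middle) and 3 enteric neuron markers (right). The markers drawn are *Vip*, *Th* and *Prph*, a chosen part of the 8 listed. Of the others, *Ret* and *Phox2a* were highest in KO mouse 1, and *Nos1*, *Chat* and *Hand2* were not. Bars and points are single mice. *Celf3* overlaps between WT (100 to 163) and KO (157 to 242) mice, and KO mouse 1 is highest for *Srrm4* (45), *Rbfox1* (20) and *Elavl2* (56).

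In the same 6 lists 1 gene was called in KO against WT crypts, *Rbm38* (-0.67, SE 0.16, adjusted p = 0.0316, limma), an RNA-binding protein gene of the other tissue-restricted regulators. None of the paralogs, epithelial regulators, REST partners, core spliceosome genes or genes with microexons was called in crypts in any of the 3 fits. Their extremes in KO against WT crypts were *Celf2* (-0.23) and *Srrm2* (0.55, adjusted p = 0.00752), *Rbm47* (-0.15) and *Esrp1* (0.12), *Rest* (-0.30, adjusted p = 0.0548) and *Rcor3* (0.53), *Snrpd1* (-0.33) and *Snrnp70* (0.49, adjusted p = 0.0106), and *Eif4g1* (-0.02) and *Mef2d* (0.37, adjusted p = 0.0314, limma). Of 3 leukocyte markers tested, *Lyz2* (-1.34, adjusted p = 0.0701) and *Ptprc* (-0.66, adjusted p = 0.14, limma) were called lower in KO crypts.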

How the data were processed

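RNA of sorted cells (miRNeasy) and crypts (RNeasy) was made into Ovation Solo libraries. Per the methods and labels, the authors aligned the paired ends by STAR to the GRCm38 genome and obtained gene counts from HTSeq with Ensembl 90 annotation. The deposited values of sorted cells are a signal (CP20M), namely gene counts that the authors brought to 20000000 a library and rounded upwards. The deposited crypt values are a score that the authors made likewise. No deposited column was left unused. Whole reads were recovered from the values by the size of 1 read, and 99.84% to 99.99% of values per library came out whole, within rounding up.

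Samples were grouped by title. Genes with at least 40 CP20M in at least 2 libraries compared (above 40 in all 4 pools for KO against HE) were tested with limma 3.58.1 (trend, log2(CP20M + 10), Benjamini-Hochberg), and with edgeR 4.0.16 (quasi-likelihood) and DESeq2 1.42.0 on recovered reads, in R 4.3.3. Thresholds follow the methods of the study, except for KO against HE pools. There the methods give only the criterion above and no adjusted p, and 0.05 was chosen here. KO pools against GFP-ve samples is not a comparison of the methods, and it took the thresholds of the first comparison. The design assumed scaled values and was kept when these proved to hold whole reads. For members with no or few reads, exact conditional intervals and a floor of 3 reads per library cover counting error only. Replicate GFP-ve samples came from 1 mouse. Pools and crypts came from separate mice. Tests were tried on simulated counts with a single spread for all genes, and changes were planted only in genes past a minimum mean level. These simulations do not cover members with few reads. The alternatives were other pseudocounts, scalings, filters, tests and blocks, and leaving out each library. Gene names, coordinates and exon lengths are from GENCODE vM21 (GRCm38), promoters from RefSeq. Promoters of 1 member, *Celf4*, were not searched, and 1 enteric neuron marker is not reported here. The members and gene lists were chosen with earlier results of these data known. All 10 members were named, and from each companion list the genes past the thresholds and otherwise the highest and lowest log2 fold change. The lists were paralogs, other tissue-restricted splicing regulators, epithelial splicing regulators and PTB proteins, REST and its partners, core spliceosome, genes with microexons, and markers of enteroendocrine cells, enteric neurons, enteric glia, colonocytes, goblet cells, tuft cells, leukocytes and stroma with endothelium. The 5 genes whose profile over the sorted libraries was most like that of the members were also named.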

Additional observations from a re-analysis of the deposited data

Results flagged for a closer look

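In the group of 5 KO crypts, the only group large enough to test for a library far from the rest, 2 of the 10 members were flagged, both in KO mouse 1. *Rbfox1* had 20 CP20M there and 5 in the next mouse, a gap of 0.75 of the whole range. *Srrm4* had 45 CP20M and 20 in the next mouse, a gap of 0.714 of the range, where the 95% critical value of Dixon's test is 0.71. Chance flags about 1 in 20 groups. The part of the enteric neuron markers that were also high in this mouse was not tested.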

How the results depend on the processing

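Of 352 values of single members under an alternative, 316 kept direction and side of the threshold, 12 lost and 16 gained the call, and 8 changed sign. For HE pools against GFP-ve samples, where 2 members were called, a pseudocount of 1 gave 1, a pseudocount of 40 gave 4, edgeR and DESeq2 4 each, no trend 0 (7 at an unadjusted p under 0.05), 1 fit of all sorted libraries 1, and leaving out each library 0 to 0. Over all genes the main count of 287 became 77, 522, 759, 691, 0 and 117 in that order. For KO against HE pools, leaving out a pool gave 0 to 1 members and values of -1.46 to 0.14 for *Celf3* and -1.65 to 0.11 for *Srrm4*, both above 0 only without KO pool 2, and 0 instead of 2 members passed the criterion after rescaling. For KO pools against GFP-ve samples, edgeR, DESeq2 and 1 fit of all sorted libraries each gave 1 member instead of 0. For KO against WT crypts, leaving out a mouse gave 0 to 1 members, and -0.053 to 0.64 for *Celf4*, below 0 only without WT mouse 1. For both lines together, *Celf4* had -0.39 to 0.077 when a mouse was left out, above 0 without eCtrl mouse 3 or the library labelled eKO 2, and 0.0064 with no covariate for the line. In the second line, *Celf3* had -0.012 to 0.40, below 0 only without eCtrl mouse 2. Over all genes, the count for KO against HE pools, 0, became 2 with no filter, 8 by DESeq2, 4 without HE pool 1, 303 without KO pool 1 and 144 without KO pool 2. For KO pools against GFP-ve samples it went from 0 to 15 with no filter, 31 by edgeR, 238 by DESeq2 and 33 in 1 fit of all sorted libraries. For both crypt lines together it went from 4 to 9 by edgeR, 38 by DESeq2, 0 with no trend, 32 without the library labelled eKO 2, 1131 without eKO mouse 1 and 0 to 7 without other mice that moved it. For KO against WT crypts it went from 1514 to 854 with a pseudocount of 40, 966 without WT mouse 1 and 553 without WT mouse 2, and for eKO against eCtrl crypts from 0 to 6 by DESeq2 and 1 to 6 without single mice. The causes were not tested.

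The numbers in the titles name different animals or pools, or samples of 1 mouse for the GFP-ve cells. The mean correlation of same-numbered libraries was 0.03 between HE pools and GFP-ve samples, -0.24 between KO and HE pools, 0.02 between KO pools and GFP-ve samples, -0.02 between KO and WT crypts, and 0.48 between crypts of eKO and eCtrl mice. With the number as a block, 3 members instead of 2 were called in HE pools and 523 genes instead of 287, with 194 genes instead of 0 for KO pools against GFP-ve samples, 27 instead of 4 for both crypt lines together and 13 instead of 0 for eKO crypts, *Celf3* was called in KO pools against GFP-ve samples (1 member instead of 0), and *Elavl2* was called in KO crypts (1.57, 1 member instead of 0), while *Celf4* changed sign for both lines together (0.061). Crossing the numbers of KO and HE pools, tried after seeing the data, called 85 genes and 0 members. Depth limits *Celf4*, *Elavl2*, *Elavl4*, *Nova1* and *Rbfox1* in sorted cells, where they rest on at most 8 reads a library.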

Other observations

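The 5 genes whose levels over the 6 sorted libraries were most like the mean profile of 8 members were *Zfp57*, *Ets1*, *Ctxn1*, *Dusp4* and *Sez6l2*, among 17141 genes compared. *Zfp57*, a zinc finger gene of imprinting control, had no read in the GFP-ve samples, 150 and 201 CP20M in both HE pools and 188 and 59 in both KO pools. *Ets1*, a transcription factor gene, had 99 and 114 CP20M in the GFP-ve samples, 1163 and 1427 in both HE pools and 1239 and 605 in both KO pools. These genes were chosen by this likeness. They were low in the GFP-ve samples and lowest among the GFP+ve pools in KO pool 2. Most members of the profile shared that order, but *Celf4* was highest in KO pool 2, at 93 CP20M. *Sez6l2* had 72 and 83, then 2359 and 2987, then 2216 and 826 CP20M in the same order. The likeness was measured by Pearson's correlation of log2(CP20M + 10), and 1473 genes exceeded 0.9 by it, since the libraries fall into GFP-ve and GFP+ve clusters.

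The stromal and endothelial markers, 5 genes, summed to 404 and 547 CP20M in the GFP-ve samples, 1705 and 1734 in both HE pools and 1803 and 932 in both KO pools. Most of the GFP+ve sums came from *Pecam1*, with 126 and 340, then 1496 and 1734, then 1803 and 826 CP20M in the same order. *Col1a1* went the other way, from 188 and 155 CP20M in the GFP-ve samples to at most 12 in a GFP+ve pool, and *Acta2* from 18 and 21 to at most 12. *Col3a1* and *Pdgfra* were at 0 in HE pool 2 and KO pool 1. The 4 leukocyte markers summed to at most 82 CP20M in any sorted library. The 4 tuft cell markers summed to 1335 and 1276 CP20M in the GFP-ve samples and to 186 to 377 in the GFP+ve pools.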
